A study of Homo sapiens with 13 samples.

Results

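IL24, IL20 and the 3 receptor genes IL20RA, IL20RB and IL22RA1 were followed in human breast epithelial cells, as 5 of the 38369 gene rows in the deposited tables. IL24 was chosen on its known rise between 0 h and 4 h of tamoxifen in these same libraries; the other 4 genes were taken by name, as the sister cytokine and the receptor chains. The values of the 5 genes in any comparison with the 0 h or 4 h libraries are therefore given as a description, with no test. They were tested only where other libraries were compared, in LINC00520-transduced against untransduced cells and in 36 h against 12 h.

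IL-24 and IL-20 are secreted cytokines of the IL-10 superfamily, whose genes lie side by side with IL10 and IL19 in 1 cluster on chromosome 1. Both bind receptor pairs on epithelial cells. The type I receptor joins the chains IL-20RA and IL-20RB and the type II receptor joins IL-22RA1 and IL-20RB, and both signal through JAK kinases to STAT3. In skin, this family is known for driving keratinocytes to proliferate and to make antimicrobial proteins, and IL-24 is also known as MDA-7, a gene first found in differentiating melanoma cells.

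Polyadenylated RNA was sequenced from MCF10A, an immortalised, non-tumorigenic breast epithelial line that the labels describe as breast cancer. All time-course cells were MCF10A-Src, which carry an added Src kinase that tamoxifen activates. Its libraries were made after 0 h (n = 1), 4 h (n = 2), 12 h (n = 1) and 36 h (n = 2) of tamoxifen. Parental MCF10A cells were sampled 72 h after transduction with the long noncoding RNA LINC00520 (n = 2), beside untransduced cells (n = 3), which the labels also describe as mock transduced. All cells were grown with serum, EGF, insulin, hydrocortisone and cholera toxin, and nothing in the labels says whether replicates were separate cultures, so a p-value here reflects library-to-library spread alone, and that spread may be technical. No time-matched cells without tamoxifen were analysed here, so Src activation and time in culture cannot be told apart. With the libraries analysed here, LINC00520 and transduction itself cannot be told apart either. The series also holds 2 samples with a control lincRNA, but their libraries could not be matched by name and were not used.

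The libraries held 12.6 to 52.3 M fragments in the time course and 22.9 to 36.4 M in the over-expression experiment. The row taken as LINC00520 (linc-TBPL2-2, chromosome 14) held 2 to 6 fragments in the untransduced libraries and 1031 and 1122 in the transduced ones. All 8 epithelial markers listed (among them KRT5, KRT14, TP63 and CDH1) were at 1 CPM or more in every group, with a summed CPM of 6817 at 0 h, 8893 to 9262 at 4 h, 7238 at 12 h and 4833 to 5285 at 36 h, where CPM is the gene's count relative to library size after TMM scaling. The summed CPM of 10 immune and blood cell markers was 16.5 at 0 h, 19.8 to 22.7 at 4 h, 27.5 at 12 h and 68.9 to 106.9 at 36 h. Among those markers MS4A1 and HBB had no fragment in any time-course library. The summed CPM of 6 fibroblast markers was 39.99 at 0 h, 41.1 to 44.6 at 4 h, 64.2 at 12 h and 120.1 to 152.8 at 36 h, with COL1A2 at 0. In the over-expression experiment the immune sum was 26.4 to 29.9 and the fibroblast sum 33.3 to 34.9. The immune and fibroblast sums were highest at 36 h, where IL24 was lower than at 12 h; their part in the values below was not tested. In bulk RNA, fewer cells expressing a gene and less RNA per cell cannot be told apart.

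The 2 ligand genes were both near 0 at 0 h and higher at every later time, so their promoters are shown, as the 250 bases before the start site that RefSeq gives (GRCh38.p14, plus strand, 5′ to 3′). The IL24 window is chr1:206897193-206897442, and the IL20 window, the first of the 2 start sites listed for that gene, is chr1:206863315-206863564. Capitals mark a match to 1 of 4 motifs, searched on both strands: TTCNNNGAA (STAT), TGANTCA (AP-1), TTGCNNAA (C/EBP) and the TATA box hexamer TATAAA.
IL24: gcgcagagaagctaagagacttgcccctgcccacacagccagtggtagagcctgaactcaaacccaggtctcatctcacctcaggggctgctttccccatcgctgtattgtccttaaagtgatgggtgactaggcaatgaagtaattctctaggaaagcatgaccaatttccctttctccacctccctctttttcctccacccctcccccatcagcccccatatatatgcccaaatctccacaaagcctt
IL20: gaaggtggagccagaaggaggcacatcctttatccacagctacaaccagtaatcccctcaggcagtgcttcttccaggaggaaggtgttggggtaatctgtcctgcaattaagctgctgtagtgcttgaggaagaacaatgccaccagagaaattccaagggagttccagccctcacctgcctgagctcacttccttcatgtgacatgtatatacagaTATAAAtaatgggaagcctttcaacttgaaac
The IL20 window held TATAAA at -32 to -27 from its start site, and the IL24 window held no exact match to the 4 motifs. Only the exact hexamer was searched, so other TATA-like letters, such as tatatat in the IL24 window, were not marked. IL20RA also held TATAAA at -32 to -27, before the first of its 2 listed start sites. The windows before the second start sites of IL20 and IL20RA held no match. IL22RA1 held the AP-1 letters TGAATCA at -223 to -217 and a C/EBP match, TTCTGCAA on the other strand, at -172 to -165. Of 35116 promoter windows of this length, 6.57% held the STAT letters, 6.57% the AP-1 letters, 9.05% the C/EBP letters and 10.7% the TATA letters. A match is a description of the letters and shows no binding.

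IL24 went from nearly silent to one of the more abundant transcripts of MCF10A-Src cells. Its row (chromosome 1, 207070788 to 207098622, hg19 as in the files) held 23 fragments in the 0 h library, with an exact 95% Poisson interval of 14.6 to 34.5 that covers counting error only. It held 3186 and 3593 fragments at 4 h, 13903 at 12 h, and 4746 and 2458 at 36 h. Scaled to library size this was 0.403 CPM at 0 h, 165 and 152 CPM at 4 h, 491 CPM at 12 h, and 229 and 233 CPM at 36 h. The 0 h library was the lowest and the 12 h library the highest, and the values of the 4 time points did not overlap. On the per-length scale, FPKM (fragments divided by transcript length and by sequencing depth), the order was the same: 0.216 at 0 h, 109 and 92.1 at 4 h, 287 at 12 h, and 128 and 146 at 36 h. By FPKM, IL24 ranked 15280 of 15572 tested rows at 0 h, 561 and 822 at 4 h, 224 at 12 h, and 532 and 509 at 36 h.

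The values that chose IL24 were those of 4 h against 0 h, a 390-fold difference (log2 8.61, SE 0.30). Against the same 0 h library, 12 h was 1206-fold higher (log2 10.24, SE 0.32) and 36 h 567-fold higher (log2 9.15, SE 0.31). Between 4 h and 12 h, IL24 differed 3.09-fold (log2 1.63, SE 0.17), and between 4 h and 36 h 1.46-fold (log2 0.54, SE 0.15). These folds share the 0 h or the 4 h libraries, and the 0 h level rests on 1 library. On the log2(FPKM + 1) scale the 4 h difference was 6.38, since a pseudocount weighs most on a gene near 0.

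The test of 36 h against 12 h used neither of those time points' libraries for its means. IL24 fell by 1.09 on the log2 scale (SE 0.17, edgeR adjusted p = 0.00692), a level at 36 h 2.13-fold lower than at 12 h, in both 36 h libraries. In this comparison 20.9% of all 15572 rows passed the test, 10.3% higher and 10.5% lower, with a median log2 change of -0.02. IL24 was 1 of 3 tested genes of the set and the one that passed, beside IL20 and IL20RB. The fall rests on a single 12 h library, whose spread was taken from the duplicate time points. With limma on log2(FPKM + 1) it was -1.07 with an adjusted p of 0.0512, and over all alternatives the adjusted p ranged from 2.67e-05 to 0.0757. Without TMM scaling the median of all rows was -0.33, and 836 rows were higher and 3275 lower in place of 1609 and 1641.

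**Figure D1:**
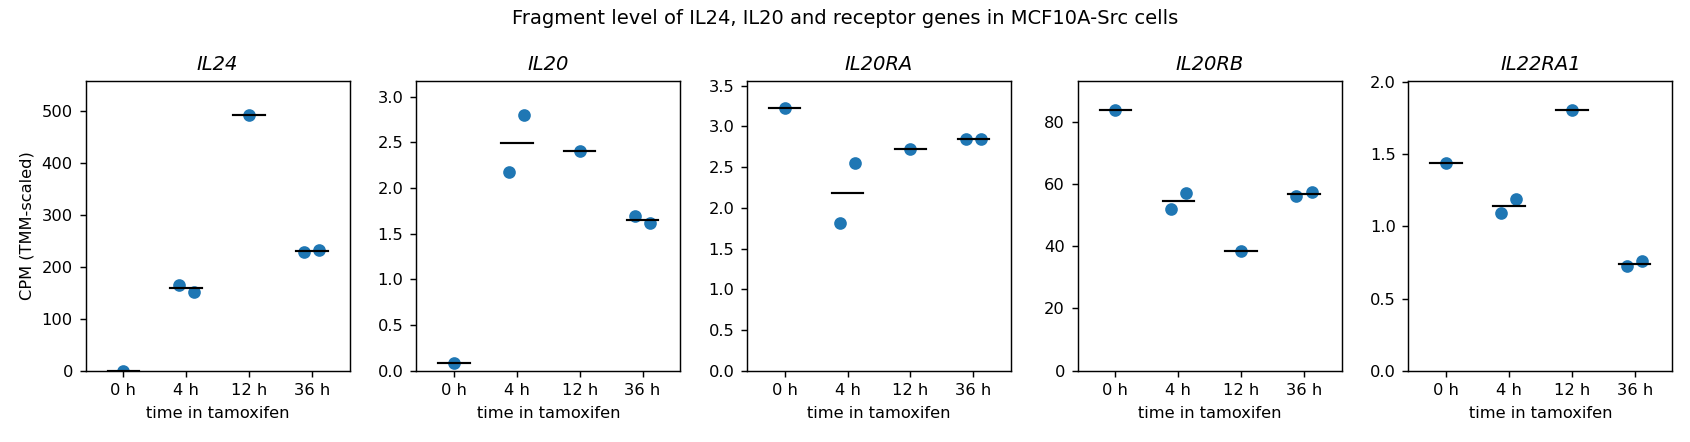
CPM after TMM scaling (vertical axes, each starting at 0) of the 5 genes in the 6 MCF10A-Src libraries by time in tamoxifen. Each point is 1 library and each bar the mean of a time point; IL24 is highest at 12 h (491 CPM), where IL20RB is lowest (38.4 CPM).

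IL20, which encodes the sister ligand of the same receptors, was low throughout but had the same lowest library. Its row (chromosome 1, 207038698 to 207042567) held 5 fragments at 0 h (exact 95% Poisson interval 1.62 to 11.7), 42 and 66 at 4 h, 68 at 12 h, and 35 and 17 at 36 h. That was 0.0876 CPM at 0 h, 2.18 and 2.80 CPM at 4 h, 2.40 CPM at 12 h, and 1.69 and 1.61 CPM at 36 h. The 12 h value lay between the 4 h values, and both 36 h values lay below them and far above 0 h. The log2 differences from 0 h were 4.76 at 4 h (SE 0.54), 4.71 at 12 h (SE 0.57) and 4.17 at 36 h (SE 0.56), given with no test. Against 12 h, the 36 h level was 0.53 lower on the log2 scale (SE 0.39, edgeR adjusted p = 0.351, range over alternatives 0.142 to 0.668), which did not pass. IL24 and IL20 entered the time-course fit only through the times at which they were high.

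The distance between the ligands also differed by time. The ratio of IL24 to IL20 in FPKM was 2.55 at 0 h, 63.2 and 43.8 at 4 h, 156 at 12 h, and 97.6 and 91.6 at 36 h. By rank in FPKM, IL20 stood at 15400 of 15572 rows at 0 h and between 11131 and 12765 in the other libraries. The other cytokines of the family were at or near 0. IL22, IL26 and the interferon lambda genes IL28A, IL28B and IL29 had 0 fragments in all 6 time-course libraries. IL19, another cytokine gene of the chromosome 1 cluster, had 0 fragments at 0 h, 1 and 3 at 4 h, 5 at 12 h and 0 in both 36 h libraries. IL10, an anti-inflammatory cytokine, had 0 to 2 fragments in any library. None of these 7 cytokine rows reached the level needed for a test. A count of 0 leaves room for 3 fragments in a library.

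IL20RB, the chain shared by both receptors, was the abundant receptor gene of the set and stood highest where the ligands stood lowest. Its row (chromosome 3, 136676706 to 136729920) held 4788 fragments at 0 h, 1001 and 1349 at 4 h, 1087 at 12 h, and 1165 and 605 at 36 h. It was at 83.9 CPM at 0 h, 51.9 and 57.2 CPM at 4 h, 38.4 CPM at 12 h, and 56.3 and 57.4 CPM at 36 h. The 12 h library was the lowest, and the 4 h and 36 h values overlapped. The log2 difference from 0 h was -0.62 at 4 h (SE 0.18), -1.13 at 12 h (SE 0.22) and -0.56 at 36 h (SE 0.18), without a test. Between 36 h and 4 h the difference was 0.06 (SE 0.15), and -0.20 without TMM scaling, where the median of all rows was -0.29. Against 12 h, IL20RB at 36 h was 0.56 higher on the log2 scale (SE 0.19, edgeR adjusted p = 0.0736), which did not pass. It passed when either 4 h library was left out of the shared estimate of the spread, with adjusted p = 0.0164 without replicate 1 and 0.0161 without replicate 2, and the range over all alternatives was 0.0161 to 0.338 in adjusted p.

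IL20RA, the chain that joins IL-20RB in the type I receptor, was low (chromosome 6, 137321108 to 137366298). It held 184 fragments at 0 h, 35 and 60 at 4 h, 77 at 12 h, and 59 and 30 at 36 h. In CPM this was 3.22 at 0 h, 1.82 and 2.55 at 4 h, 2.72 at 12 h, and 2.85 in both libraries at 36 h. The 0 h library was highest and the 4 h libraries lowest, but all other times lay within 1 SE of one another: 36 h differed from 12 h by 0.05 on the log2 scale (SE 0.40). Its FPKM stayed under 1 in every time-course library, so it was not in the fit, and its differences come from the fit without a filter.

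IL22RA1, the chain that joins IL-20RB in the type II receptor, was lower still (chromosome 1, 24445418 to 24469611). It held 82 fragments at 0 h, 21 and 28 at 4 h, 51 at 12 h, and 15 and 8 at 36 h. In CPM this was 1.44 at 0 h, 1.09 and 1.19 at 4 h, 1.80 at 12 h, and 0.725 and 0.759 at 36 h. The 12 h library was highest and the 36 h pair lowest, with no overlap of library values between time points. The 0 h and 12 h levels rest on 1 library each. Their exact 95% Poisson intervals were 65.2 to 101.8 fragments at 0 h and 38.0 to 67.1 at 12 h, covering counting error only. The 36 h level was 1.29 below 12 h on the log2 scale (SE 0.51) in the fit without a filter, given as a description since its FPKM also stayed under 1. The row shares its coordinates with linc-IL22RA1-AS, an antisense long noncoding RNA, and the strand setting is not given in the sources used here, so reads of the pair may not be told apart.

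Per transcript length, the shared chain IL20RB exceeded both of its partner chains in every library. In the time course the FPKM of IL20RB was 25.2 to 51.6 times that of IL20RA and 30.5 to 110.6 times that of IL22RA1. The FPKM of IL20RA was 1.21 to 3.21 times that of IL22RA1. The ratio of IL24 to IL20RB was 0.00497 at 0 h, 3.98 and 2.96 at 4 h, 14.3 at 12 h, and 4.26 and 4.61 at 36 h, so the ligand mRNA exceeded that of the shared chain at every time but 0 h.

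**Figure D2:**
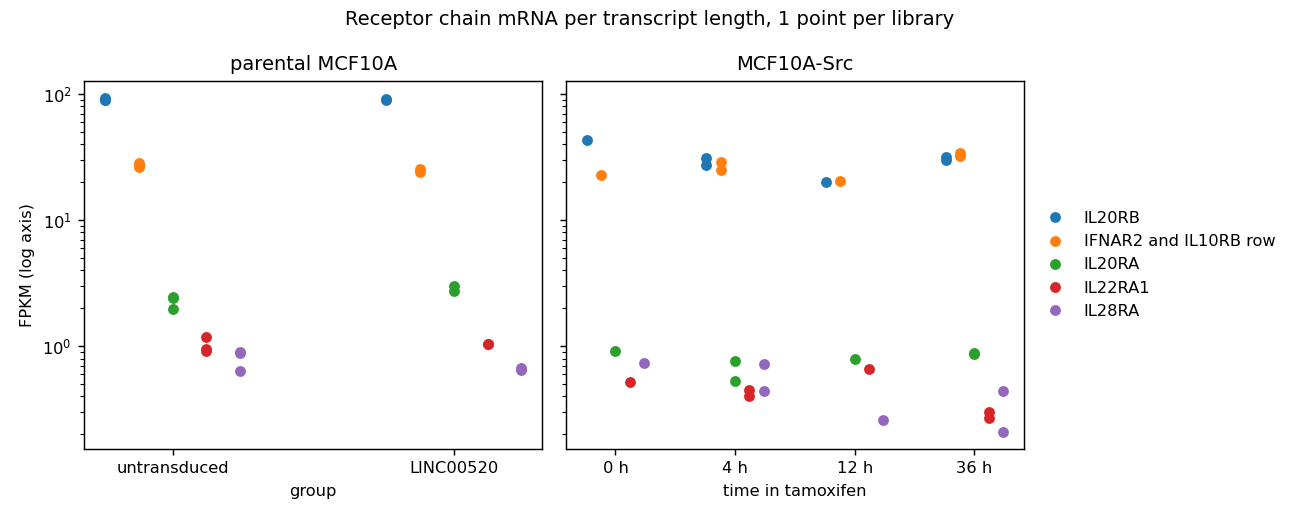
FPKM (log axis) of 5 receptor rows in parental MCF10A cells by group and in MCF10A-Src cells by time in tamoxifen, 1 point per library. IL20RB and the joint row of IFNAR2 and IL10RB lie at 20.1 FPKM or more, and IL20RA, IL22RA1 and IL28RA at 3.03 or less; levels were scaled separately in the 2 experiments.

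Other receptor chains of the family gave a context for these levels. IL10RB, the partner chain of the IL-22 and IL-10 receptors, shares a row with IFNAR2 that was at 20.6 to 34.4 FPKM in the time course. IL10RA, the ligand-binding chain for IL-10, had 0 fragments in every library. IL22RA2, a soluble decoy for IL-22, had 6 fragments at 0 h, 4 over both 4 h libraries, 5 at 12 h and 0 at 36 h. IL28RA, the interferon lambda chain, was at 0.732 FPKM at 0 h and 0.209 to 0.723 after it. IFNGR1 and IFNGR2, the interferon gamma receptor, were at 43.5 and 60.6 FPKM at 0 h. Of the 6 rows of this list 3 were tested. None passed in 4 h against 0 h, and IFNGR1 alone passed in 36 h against 4 h (log2 0.50, SE 0.15, edgeR adjusted p = 0.0332). These counts are near the shares of all rows that passed, 6.24% and 39.4%.

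In parental MCF10A cells both ligand genes stayed near 0 with and without LINC00520. IL24 had 4, 4 and 7 fragments in the untransduced libraries and 4 and 3 in the transduced ones. IL20 had 7, 3 and 3 fragments in untransduced and 2 and 1 in transduced libraries. Neither reached the filter, so neither was in the fit. Without the filter their log2 differences were -0.17 (SE 0.74) and -1.13 (SE 0.97), and neither passed. In the authors' deposited table both rows carry the status NOTEST.

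Of the 3 receptor genes, IL20RA rose with LINC00520 and the other 2 did not pass the test. It was at 8.25, 8.22 and 6.92 CPM in the untransduced libraries (7.80 ± 0.76, SD, n = 3) and at 10.5 and 9.40 CPM in the transduced ones (9.97 ± 0.80, SD, n = 2), with no overlap. The rise was 1.27-fold (log2 0.34, SE 0.096, edgeR adjusted p = 0.00487). This made 1 of 3 tested genes of the set, a share no higher than that of all 12790 rows, of which 50.0% passed, 25.2% higher and 24.8% lower, with a median log2 change of 0.00. Without LINC00520 replicate 1 the rise was 0.25 with an adjusted p of 0.125, and with limma on log2(FPKM + 0.1) it was 0.33 with an adjusted p of 0.0589; over all alternatives the adjusted p ran from 0.00132 to 0.125. The authors' deposited table gives the same row a log2 change of 0.34 and a q-value of 0.0794.

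IL20RB and IL22RA1 did not pass in this comparison. IL20RB was at 179, 177 and 186 CPM untransduced and 177 and 181 CPM transduced, and the groups overlapped. Its log2 difference was -0.01 (SE 0.031, edgeR adjusted p = 0.752, range 0.570 to 0.955), the narrowest error of the set at 4062 to 6435 fragments a library. IL22RA1 was at 2.56, 2.66 and 3.31 CPM untransduced and with the transduced libraries inside that range (2.91 ± 0.018 CPM, SD, n = 2). Its log2 difference was 0.06 (SE 0.16, edgeR adjusted p = 0.784, range 0.486 to 0.950) on 65 to 92 fragments a library. The authors' deposited table gives log2 changes of -0.01 for IL20RB and 0.03 for IL22RA1, with q-values of 0.995 and 0.990. In FPKM, IL20RB was 29.4 to 47.3 times IL20RA in these cells and 79.3 to 98.4 times IL22RA1.

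**Figure D3:**
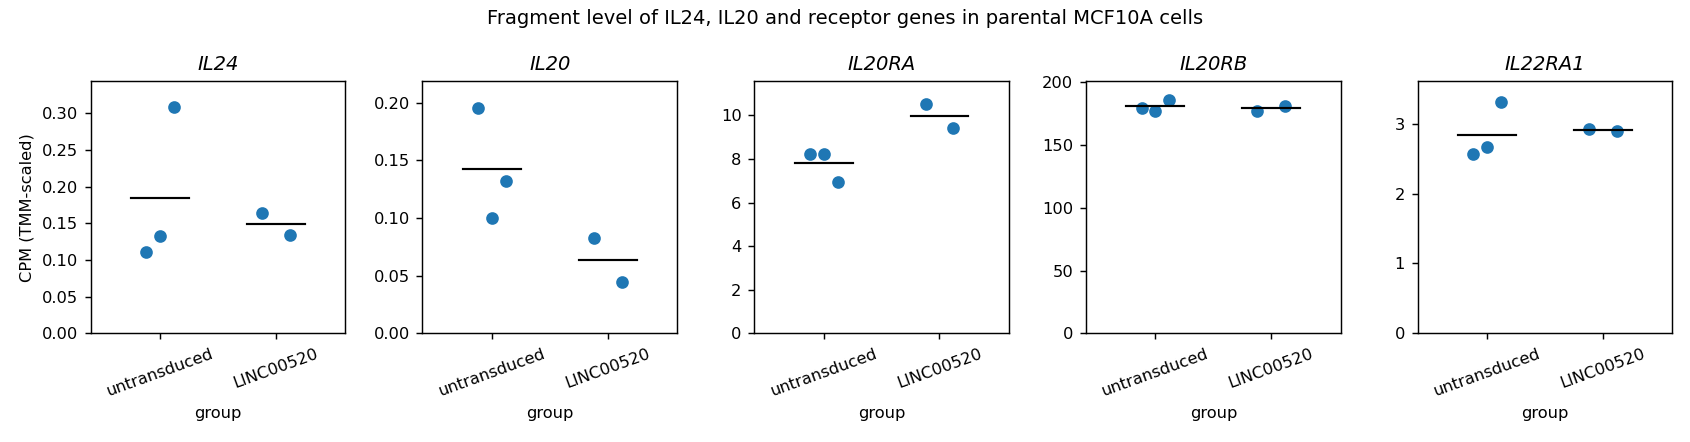
CPM after TMM scaling (vertical axes, each starting at 0) of the 5 genes in 3 untransduced and 2 LINC00520 libraries of parental MCF10A cells; points are libraries and bars group means. The IL20RA groups do not overlap (up to 8.25 against 9.40 and above), those of IL20RB and IL22RA1 do, and IL24 and IL20 rest on 1 to 7 fragments a library.

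The rows around IL24 were compared next, because the deposited row of IL24 has the same coordinates as those of FAIM3 (also FCMR, an Fc receptor for IgM) and linc-FAIM3-AS. FAIM3 held 77 fragments at 0 h, 670 and 1072 at 4 h, 3038 at 12 h, and 1219 and 638 at 36 h. At 0 h that was 335% of the IL24 fragments, and afterwards 21.0% and 29.8% at 4 h, 21.9% at 12 h, and 25.7% and 26.0% at 36 h. By edgeR, FAIM3 was higher at 4 h than at 0 h (log2 4.89, SE 0.30, adjusted p = 0.00055) and at 36 h than at 4 h (log2 0.57, SE 0.18, adjusted p = 0.0379). FAIM3 was under the FPKM minimum at 0 h (0.496 FPKM) and entered the time-course fit only through later libraries, in which it was higher. It did not pass with LINC00520 (log2 0.25, edgeR adjusted p = 0.134). In GENCODE annotation of GRCh38, IL24 (plus strand, 1979 exon bases) and FCMR (minus strand, 2348 exon bases) share 0 exon bases and their spans overlap by 0 bases. Whether reads of 1 gene were counted in the other's row was not tested, since reads were not analysed here.

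Within 500 kb of IL24 the files list 26 rows besides IL24 and IL20, of which 14 were tested in the time course. In 4 h against 0 h, FAIM3, DYRK3 (a kinase) and C1orf116 were higher and SRGAP2 lower. DYRK3 differed by 0.96 (SE 0.20, edgeR adjusted p = 0.0323), C1orf116 by 1.31 (adjusted p = 0.0348) and SRGAP2 by -0.93 (adjusted p = 0.0497). These 4 of 14 stand beside 6.24% called of all rows, 3.15% higher and 3.09% lower. Among the 4, FAIM3 shares the coordinates of IL24, which was chosen on this comparison, and was under the FPKM minimum at 0 h. In 36 h against 4 h, 4 rows were higher and 2 lower. CD55, a complement regulator, had the largest of these differences, log2 3.14 (SE 0.18, edgeR adjusted p = 2.51e-05), and linc-C4BPA-AS, which shares its coordinates, differed by 2.60. FAIM3 and linc-DYRK3-AS were the other rises, and C1orf116 (log2 -2.45) and IKBKE (log2 -1.49) fell. Of all rows 39.4% passed there, 18.8% higher and 20.5% lower. MAPKAPK2, a kinase known to stabilise cytokine mRNAs, was at 107 CPM at 0 h and 117 to 177 CPM after it, and did not pass in 4 h against 0 h (log2 0.64, edgeR adjusted p = 0.0989). PIGR, next to the locus, had 0 to 5 fragments a library. With LINC00520, 3 of 11 tested neighbours were higher and 2 lower, a share under the 50.0% of all rows that passed.

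**Figure D4:**
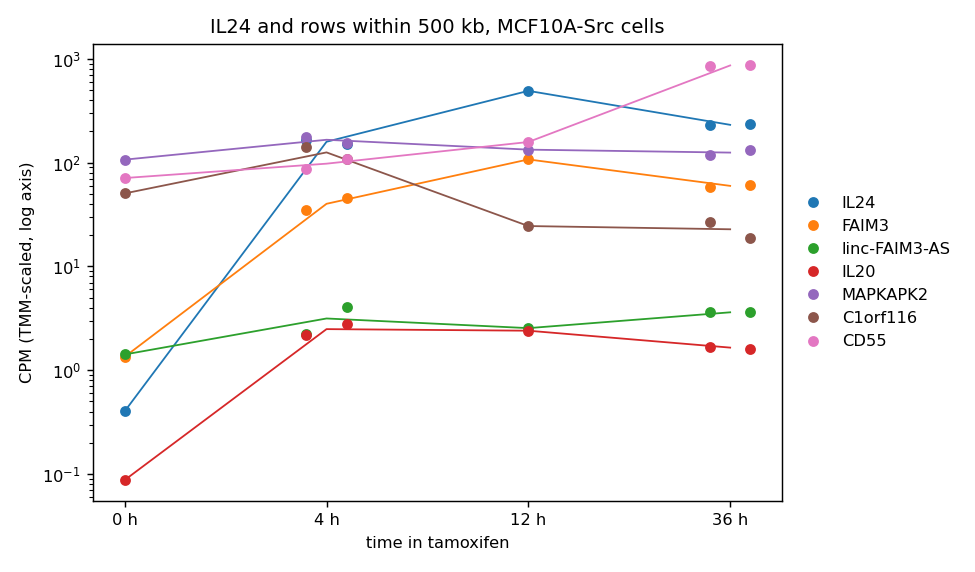
CPM after TMM scaling (log axis) of IL24, IL20 and 5 other rows within 500 kb in MCF10A-Src cells by time in tamoxifen; points are libraries and lines join the means of the time points. IL24 and FAIM3 both peak at 12 h (491 and 107 CPM), while CD55 is highest at 36 h (850 and 877 CPM).

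Profiles over the 6 time-course libraries were compared by the root mean square difference of log2(CPM + 1), each profile centred on its own mean. This is a description over 6 libraries that share depth and scaling. Nearest to IL24 were linc-SERPINB4-AS (difference 0.948), FAIM3 (1.04), SOCS3 (1.12), TNC (1.24) and linc-TGM2-AS (1.35). None was close: IL24 spanned 8.46 log2 units from its lowest to its highest library, and SOCS3, for example, 4.91. TNC, the matrix glycoprotein tenascin C, went from 8.58 CPM at 0 h to 640 at 12 h and to 1607 and 1107 at 36 h, and so had no peak at 12 h. IL20 had nearer neighbours, EHD4 (0.116), ICAM1 (0.130), USP43 (0.154), NFKB2 (0.161) and TNFAIP3 (0.176). With 1 added to CPM, IL20 spanned 1.81 log2 units, while its fitted log2 difference between 0 h and 4 h was 4.76. A small difference here therefore does not mean an equal fold change. EHD4 was at 78.2 CPM at 0 h and 241 and 257 at 4 h. ICAM1, an adhesion molecule, was at 26.2 CPM at 0 h and 59.5 to 86.5 CPM after it. Nearest to IL20RB were RNF39 (0.0543), ATP6AP1L (0.0623), ARHGAP18 (0.0740), PTCD2 (0.0822) and ZNF323 (0.0885). RNF39 was itself low, 2.50 CPM at 0 h and 0.601 at 12 h, so the added 1 flattened its profile too. ARHGAP18 was at 72.6 CPM at 0 h, 44.5 and 54.8 at 4 h, 36.3 at 12 h and 47.8 to 48.5 at 36 h.

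Genes around this pathway, 82 rows in 7 lists that leave out the 5 genes above, were then tested over the same libraries. The lists were chosen with earlier results of these data known. Their counts beside the shares of all rows are therefore a description and cannot show enrichment of a list. In 4 h against 0 h, 13 of 61 tested rows were higher and 0 lower, with a median log2 difference of 0.42 beside 0.01 over all rows. Of all rows 6.24% passed there, 3.15% higher and 3.09% lower. Among 9 tested JAK and STAT genes none passed, a number near that background. STAT3, the main transcription factor below these receptors, was 0.78 higher (SE 0.19, edgeR adjusted p = 0.0557). Among 8 feedback inhibitors SOCS3, which blocks JAK signalling and is itself a STAT3 target, rose from 14.3 CPM at 0 h to 222 and 294 CPM at 4 h (log2 4.17, SE 0.27, edgeR adjusted p = 0.000632). The mRNA of SOCS3 was at 458 CPM at 12 h and 426 and 396 CPM at 36 h.

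Of 17 tested keratinocyte genes known to respond to IL-20, IL-22 or IL-24, 7 rose by 4 h and none fell, beside 3.15% higher and 3.09% lower of all rows. As this list too was chosen with earlier results known, the count is no test of the list. The joint row of the protease inhibitors SERPINB3 and SERPINB4 was at 6.57 CPM at 0 h and 159 ± 5.32 CPM (SD, n = 2) at 4 h. Its rise was 4.60 on the log2 scale (SE 0.25, edgeR adjusted p = 0.000528). KRT16, a keratin of activated epidermis, rose by a log2 of 1.87 (adjusted p = 0.00458) and the chemokine CCL20 by 2.09 (adjusted p = 0.00976). KRT6A, KRT17 and the matrix metalloproteinases MMP3 (3 fragments at 0 h, 149 over both 4 h libraries) and MMP1 (0 and 13 fragments) made up the rest. MMP3 and MMP1 were under the FPKM minimum at 0 h and entered the fit through later libraries in which they were higher; the other 5 rises were of rows at the minimum at 0 h. Among 10 tested genes known to move when IL24 is overproduced in tumour cells, GADD45B, a stress-response gene, alone passed (log2 2.16, SE 0.23, edgeR adjusted p = 0.00335). Of 14 tested factors known to act on the IL24 gene or its mRNA, 4 were higher: the AP-1 subunits JUNB (log2 1.51), FOSL1 (1.58) and FOSL2 (0.98), and NFKB1 (0.83, edgeR adjusted p = 0.0462). Without 4 h replicate 1 the calls over the lists were 26, and without replicate 2 they were 23, while limma gave 6 on log2(FPKM + 1) and 3 on log2(FPKM + 0.1). The 0 h side was 1 library in all of these.

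In 36 h against 4 h, 23 of 61 rows were higher and 12 lower, with a median of 0.22 beside -0.04 over all rows; without TMM scaling the calls were 16 and 16. Of all rows 39.4% passed, 18.8% higher and 20.5% lower. The keratinocyte list held 11 of the rises, 7 of them of rows at the FPKM minimum at 4 h. The others, LCN2, S100A12, DEFB4 and MMP1, entered the fit through the 12 h or 36 h libraries in which they were higher. S100A9 and S100A8, which form the antimicrobial protein calprotectin, went from 374 ± 38.4 to 9673 ± 1070 CPM and from 99.96 ± 21.9 to 3335 ± 260.4 CPM (SD, n = 2 each). Their log2 differences were 4.69 and 5.06 (edgeR adjusted p = 9.34e-06 and 9.43e-06). The SERPINB3 and SERPINB4 row rose further by 4.78, and S100A7, psoriasin, by 3.88. In the same list KRT17, KRT16, KRT10 and HBEGF, a ligand of the EGF receptor, fell. KRT17 and KRT16 had been higher at 4 h than at 0 h.

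Signalling and control genes moved in both directions between 4 h and 36 h. JAK2 rose (log2 0.87, edgeR adjusted p = 0.00498) and so did STAT2. SOCS3 rose by 0.67 (edgeR adjusted p = 0.0194), and the phosphatase PTPN2 rose by 0.74. Of the factors known to act on IL24, ZFP36L1 and ZFP36, RNA-binding proteins that destabilise AU-rich mRNAs, rose by 1.66 and 1.41, and the AP-1 subunits FOS and FOSL2 rose by 0.67 and 0.62. FOSL1 fell by 1.54, JUND by 1.36, CEBPA by 1.16, CEBPD by 1.03 and ELAVL1, an mRNA-stabilising protein, by 0.62 (edgeR adjusted p = 0.0164). GADD45B fell by 1.33 and DDIT3, a gene of the endoplasmic reticulum stress response, rose by 1.69. Calls over the lists numbered 23 without 36 h replicate 1 and also 23 without replicate 2, in place of 35.

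With LINC00520, 13 of 53 tested pathway rows were higher and 22 lower, 35 calls in a comparison where 50.0% of all rows passed. All 3 tested receptor rows were lower, IFNGR1 by 0.40, IFNGR2 by 0.27 and the IFNAR2 and IL10RB row by 0.17 on the log2 scale. STAT3 was at 240 ± 2.50 CPM untransduced (SD, n = 3) and 206 ± 4.12 CPM transduced (SD, n = 2), and fell by 0.22 (edgeR adjusted p = 9.77e-07). SOCS3 did not pass (log2 -0.31, SE 0.16, edgeR adjusted p = 0.12). Among 12 tested keratinocyte genes 5 rose and 5 fell. PI3, the elastase inhibitor elafin, rose by 1.12 and KRT6A by 0.54, whereas S100A8 fell by 0.91 and S100A9 by 0.86. Of the factors known to act on IL24, FOSL1 rose by 0.66 and FOS, CEBPD, CEBPA and FOSL2 fell by 0.65, 0.64, 0.56 and 0.51.

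**Figure D5:**
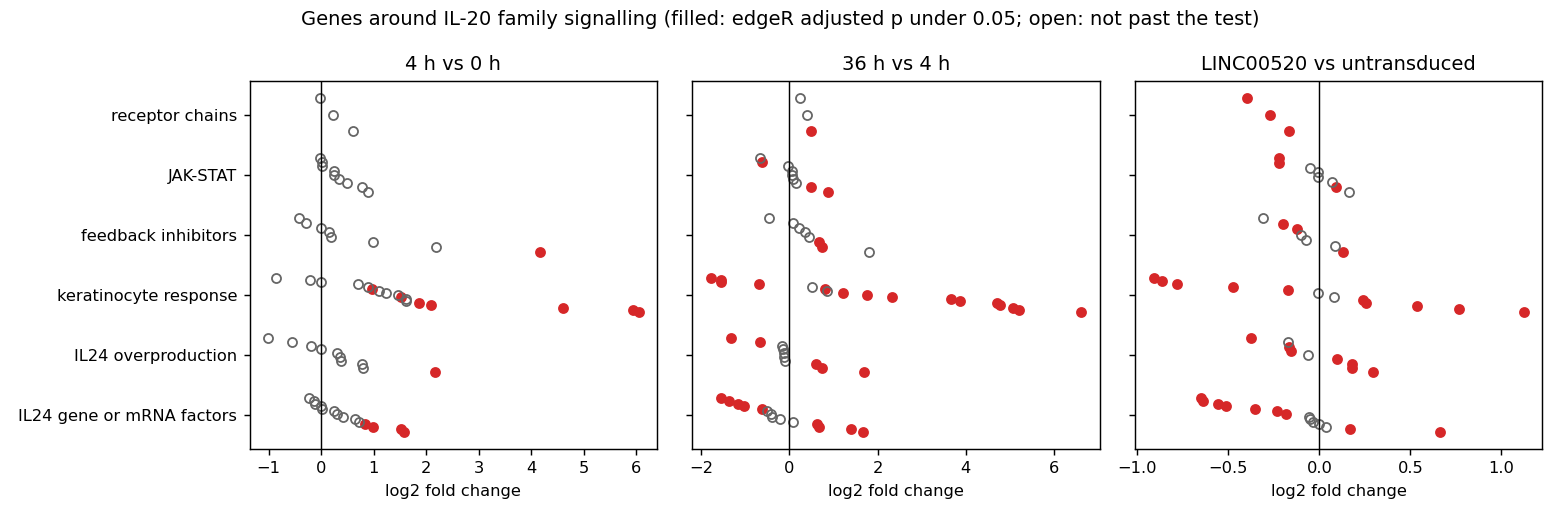
Log2 fold change (horizontal axes) of each tested pathway row in 4 h against 0 h, 36 h against 4 h and LINC00520 against untransduced cells, 1 point per row, by list. Filled points passed edgeR's test at an adjusted p under 0.05; in the first comparison all 13 filled points lie above 0, and in the third 13 lie above and 22 below.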

How the data were processed

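Polyadenylated RNA of 13 samples was sequenced; 11 were matched to libraries by name, and the 2 samples of a control lincRNA (AC006262.1) matched none and were not analysed here. Another 7 libraries there match no label and were left out of every step. Base calling with CASAVA 1.4, alignment with TopHat and quantification with Cuffdiff on hg19 are named in the submitters' processing notes; their further versions, the annotation and the strand setting are not given in the sources used here. Per the file headers, the deposited tables hold an estimated count of fragments per row and library, and FPKM scaled by Cuffdiff. The authors' deposited comparison table holds a log2 fold change and a q-value per row. Coordinates are those of the files; whether their starts count from 0 is not stated.

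Estimated counts were rounded (92.4% to 99.9% of values in a library were whole within 1e-06). The filter asked for FPKM of at least 1 (in 2 over-expression libraries or 1 time-course library) and Cuffdiff status OK, which 22 and 59 rows lacked; 12790 and 15572 rows remained. edgeR's quasi-likelihood test with TMM scaling was run over all rows of an experiment, 2-sided, with Benjamini-Hochberg adjustment and a threshold of 0.05; SE is the absolute log2 fold change over the square root of F. The coefficient of variation between replicates was 0.0249 (3 residual degrees of freedom) in the over-expression experiment and 0.162 (2) in the time course. The test was checked on simulated data. Alternatives were DESeq2, no TMM, no filter, limma on log2(FPKM + 1) or log2(FPKM + 0.1), the replicate block and leaving out single libraries. Only libraries of groups with more than 1 were left out, so never the single 0 h or 12 h library. Fits used edgeR 4.0.16, DESeq2 1.42.0 and limma 3.58.1 under R 4.3.3; tables and plots used pandas 2.3.3, numpy 2.4.6 and matplotlib 3.10.9 under Python 3.11.15, and intervals scipy 1.17.1.

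The 5 genes, the lists and the tests were chosen with earlier results of these data known. The text names the 5 genes, up to 4 called genes of smallest p per pathway list and comparison, the 5 profiles nearest to IL24 and IL20RB, rows within 500 kb of IL24, and every cytokine and receptor of the first lists. The profiles nearest to IL20, STAT3 and SOCS3 where they did not pass or ranked lower, and KRT6A, KRT17, KRT16, KRT10, MMP1, HBEGF, LCN2, S100A12, DEFB4, FOS, FOSL2, CEBPA, CEBPD and ELAVL1 where outside that rule, were named after their values were seen.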

Additional observations from a re-analysis of the deposited data

How the results depend on the processing

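The number of genes of the set that passed with LINC00520 was 1, and 0 with limma on log2(FPKM + 0.1); leaving out single libraries gave 0 to 1. In 36 h against 12 h it was 1, and 0 with limma on log2(FPKM + 1) and 0 on log2(FPKM + 0.1), with 1 to 2 without single libraries. Pathway calls in 4 h against 0 h were 13, with 21 by DESeq2, 26 with no filter, and 6 and 3 by limma at the larger and smaller pseudocount; without single libraries they were 15 to 26. In 36 h against 4 h they were 35 and ran from 23 to 39 without single libraries, and with LINC00520 35, from 28 to 36. Over all rows, 4 h against 0 h gave 491 higher and 481 lower, but 86 and 78 with limma on log2(FPKM + 1), 53 and 81 on log2(FPKM + 0.1), 1234 and 1560 with no filter, 1902 and 2386 without 4 h replicate 1 and 1049 and 910 without replicate 2. In 36 h against 12 h it gave 1609 and 1641, but 641 and 411 and then 189 and 89 with limma, 800 and 744 without 36 h replicate 2, 953 and 1053 without 36 h replicate 1, 3050 and 3357 without 4 h replicate 1 and 3094 and 3181 without replicate 2. In 36 h against 4 h it gave 2930 and 3200, but 1861 and 4823 without TMM, 2073 and 1932 with limma on log2(FPKM + 0.1), and 1895 and 1926 or 1919 and 1733 without 36 h replicate 1 or 2. The cause of these differences was not tested. With LINC00520, the log2 difference of IL20RB ran from -0.0291 (without LINC00520 replicate 2) to 0.0048 (without untransduced replicate 3), and was 0.0034 without LINC00520 replicate 1. That of IL22RA1 ran from -0.0156 (without untransduced replicate 1) to 0.1568 (without replicate 3). The sign thus turned for both, neither of which passed. IL24's fall from 12 h to 36 h kept its direction under all 9 alternatives (log2 -1.40 to -1.05), as did IL20RA's rise with LINC00520 under 11 (0.25 to 0.42). The single 12 h library was part of all 9, so they cannot check the 12 h level of IL24.

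Deviations of same-numbered libraries correlated at -0.06 and -0.05 with LINC00520 and at 0.10 between 4 h and 36 h; with 2 pairs each, the numbers were not taken to pair them. With the replicate block IL20RB was at 0.005 with LINC00520, pathway calls were 31 there and 36 in 36 h against 4 h, and all rows gave 2756 higher and 2744 lower with LINC00520, with no call of the 5 genes changed. Single-library time points and fragment numbers under 100 a library (IL20, IL22RA1, and IL20RA after 0 h) limit what these values can show.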
